A study of Mus musculus with 16 samples.

Results

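Among mice given bleomycin, the lavage libraries differed in how much T cell RNA they held, and the 8 bleomycin libraries were therefore ranked by Cd3e. The upper 4 and the lower 4 were chosen by this measured level and no other. Cd3e encodes the epsilon chain of the CD3 complex, which carries the T cell receptor's signal into the cell. The 8 libraries are 8 of the 16 in the series. All hold RNA of bronchoalveolar lavage cells, those rinsed out of the airways, from C57BL/6 mice that were 8 to 10 weeks old. The sample labels spell the strain C56BL/6J, and they list no genetic change in any group. Males and females each received either saline or bleomycin at 4 U per kg through the oropharynx, and the cells were taken 14 days later, with 4 libraries for each sex and treatment. Bleomycin breaks DNA, and instilled into the lung it causes inflammation and then scarring. The labels name no litter, batch or date, and nothing in them says whether each library is 1 animal or a pool.

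Lavage cells of a healthy mouse lung are mostly alveolar macrophages, long-lived cells that clear surfactant and debris. After injury, monocytes enter and become macrophages, and lymphocytes arrive later and in variable number. T cells, B cells and natural killer (NK) cells carry transcripts that macrophages barely make, so that even a small share of lymphocytes leaves a readable trace in the RNA of the whole lavage. In such bulk samples, fewer cells of a type and less RNA per cell cannot be told apart.

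Levels are given as CPM, the count of a gene scaled to the same total in every library. Cd3e (ENSMUSG00000032093, GRCm38 chromosome 9, 44998740 to 45009627, minus strand) stood at 43.6 CPM in C65, 37.7 in C49, 33.8 in C67 and 29.6 in C50, which form the upper 4. The lower 4 had 25.8 CPM in C66, 14.3 in C33, 12.1 in C68 and 11.98 in C69. Each part holds 2 males (C65 and C67 above, C66 and C33 below) and 2 females (C49 and C50 above, C68 and C69 below). The members on either side of the boundary were C50, with 726 counts and a 95% Wilson interval of 27.5 to 31.8 CPM, and C66, with 576 counts and an interval of 23.8 to 28.0 CPM. These intervals cover counting error only. The widest gap in the ranking, 11.5 CPM, lay between C66 and C33, inside the lower part, so that the boundary cuts a range and does not separate 2 distinct kinds of library. The 8 saline libraries had 0.119 ± 0.0918 CPM (SD, n = 8).

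Because Cd3e chose the parts, every difference between them is given as a description, with no test. A gene is called higher when all 4 upper libraries exceeded all 4 lower ones, and lower in the reverse case. The ratio is that of the mean CPM of the parts, with 0.1 CPM added to each. Of 12699 genes with a mean of at least 1 CPM over the 8 libraries, 741 (5.84%) were higher and 164 (1.29%) were lower. A further 17 T cell receptor genes at that level were left out, since they report on the same cells as Cd3e. Scaled by TMM factors, set for each library after trimming genes with extreme ratios or levels, the counts were 557 higher and 377 lower. The higher genes then made up 59.6% of the genes without overlap, against 81.9% with library totals. Leaving out any 1 library raised both counts, since fewer libraries separate more often, and most without C65 (1307 and 415), C33 (1286 and 378) and C66 (1248 and 406). The median log2 ratio of all kept genes was 0.06 with totals and -0.02 with TMM factors.

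With library totals, the higher genes tended to be scarcer transcripts with larger ratios, and the lower genes more abundant ones with smaller ratios. With TMM factors 501 of the 741 higher and 122 of the 164 lower genes stayed without overlap. Of the 741 higher genes, 174 were at least 2-fold higher, and their median log2 ratio was 0.63. No lower gene reached 2-fold, and the median log2 ratio of the 164 was -0.24. The higher genes had a median level of 13.8 CPM and the lower genes of 66.6 CPM, against 24.3 CPM over all kept genes. Among genes above 100 CPM, 30 of 1958 were higher and 63 were lower, the only range of levels in which lower genes outnumbered higher ones.

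**Figure D1:**
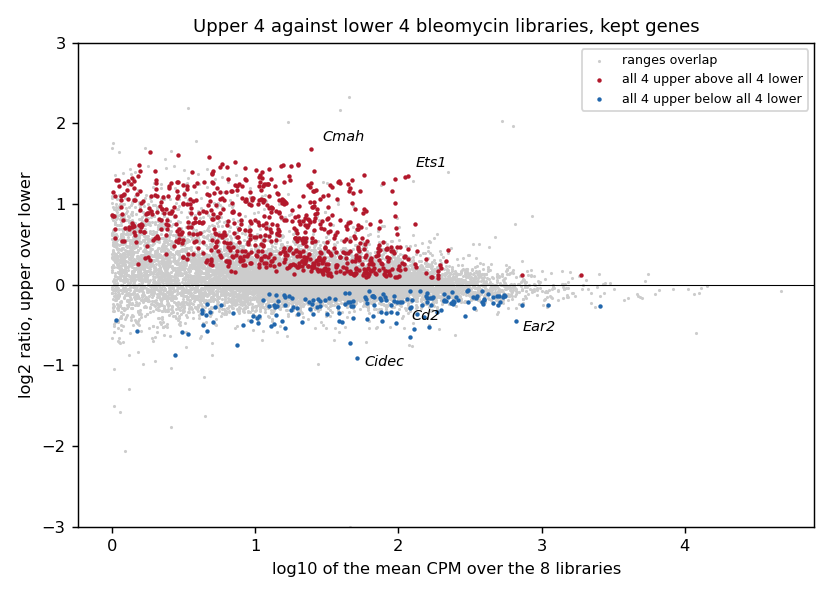
Each point is 1 of 12699 kept genes, with the log10 of its mean CPM over the 8 bleomycin libraries on the horizontal axis and the log2 ratio of the upper over the lower libraries on the vertical axis. The 741 genes in red (all 4 upper libraries above all 4 lower ones) spread up to a log2 ratio of 1.68 at Cmah, and the 164 in blue reach -0.91 at Cidec.

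The ranges of total counts, mitochondrial share, haemoglobin and number of genes detected overlapped between the parts. Total counts were 19994223 to 24567609 in the upper libraries and 18871879 to 24225885 in the lower ones, and the mitochondrial share was 1.98% to 2.35% against 1.96% to 2.33%. Summed haemoglobin transcripts, a sign of blood, were 784 to 5346 CPM in the upper libraries and 61.5 to 1057 CPM in the lower ones, with the highest value in C65. Its part in the results was not tested, but leaving red blood cell genes out of the totals gave 757 higher and 153 lower genes. The number of genes with at least 10 counts was 14121 to 15351 in the upper libraries and 13388 to 14688 in the lower ones. The upper libraries were no closer to each other than to the lower ones, whereas the lower libraries spread less widely. The chi-square per gene ran from 14.9 to 75.5 within the upper part and from 15.1 to 70.6 between the parts. Within the lower part it ran from 16.4 to 44.8. Every pair of libraries differed by far more than counting noise.

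The members of the T cell receptor complex, left out of the counts, moved with Cd3e. Cd247, the zeta chain, was 22.7 to 22.9 CPM in the 4 upper libraries and 5.19 to 14.6 CPM in the lower ones. Cd3g separated the parts as well, by a log2 ratio of 0.97. Cd3d did not: C50 and C66 both had 24.3 CPM, and a ranking by Cd3d exchanges these 2 libraries, so that 3 of the same 4 stay in the upper part.

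Of 30 genes of T cell identity and signalling, all kept, 22 were higher, none was lower, and the median log2 ratio was 1.104. This share stands beside the 5.84% of all kept genes, and the list was chosen with the Cd3e ranking in view. Lef1 (ENSMUSG00000027985, chromosome 3, 131110471 to 131224356), a transcription factor of naive and memory T cells, was 53.1, 34.4, 33.3 and 28.3 CPM in C65, C49, C67 and C50, and 25.9, 9.78, 9.81 and 10.5 CPM in C66, C33, C68 and C69. Tcf7, which encodes the related factor TCF1, was 158, 168, 178 and 138 CPM in the upper libraries in the same order and 103, 59.0, 45.5 and 47.5 CPM in the lower ones. In both genes the parts did not overlap, and C66 lay closer to C50, the lowest upper library, than to any other lower library.

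Trat1, an adaptor that stabilises the receptor at the cell surface, differed by a log2 ratio of 1.37, with 6.64 to 7.48 CPM in the upper libraries against 1.75 to 4.67 CPM. Txk, a Tec-family kinase of T cells, differed by 1.31. The coreceptor Cd4 was higher without overlap (log2 ratio 1.16), whereas Cd8a (0.91) and Cd8b1 (0.60) overlapped. On the deposited FPKM scale, which divides by gene length, the ratio of Cd4 to Cd8a was 0.646 to 0.921 in the upper libraries and 0.597 to 0.788 in the lower ones, which overlap. Foxp3 over Cd3e was 0.161 to 0.269 against 0.240 to 0.367, again overlapping.

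One member of the T cell list did not move with it. Cd2, an adhesion receptor of T cells and NK cells, was 91.9, 103, 99.3 and 104 CPM in the upper libraries and 101, 139, 143 and 106 CPM in the lower ones. Its saline level, 276 ± 15.9 CPM (SD, n = 8), was above all 8 bleomycin libraries, although Cd3e was nearly absent from saline lavage. Across the label comparison of bleomycin with saline, Cd2 fell by 1.102 on the log2 scale (SE 0.0884, edgeR adjusted p = 3.78e-09), and 4400 of 15257 genes tested (28.8%) fell. A ranking of the 8 libraries by Cd2 in place of Cd3e put only 1 of the same 4 libraries in the upper part.

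**Figure D2:**
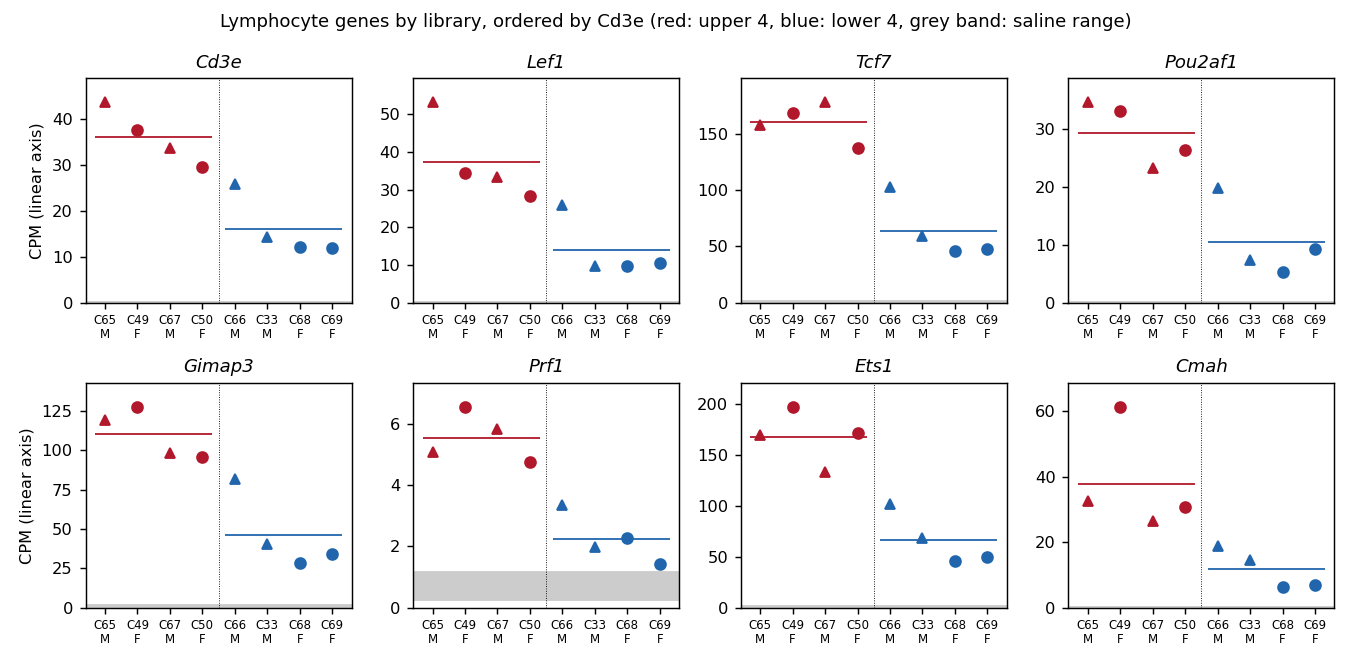
CPM of 8 genes in the 8 bleomycin libraries (triangles, males; circles, females), ordered from left to right by falling Cd3e, with horizontal lines at the mean of each part and a grey band over the range of the 8 saline libraries. In each panel the 4 red upper libraries lie above the 4 blue lower ones, and C66 is the highest of the lower libraries.

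Checkpoint receptors and genes of regulatory T cells were higher in part. Of 16 kept, 7 were higher, against 5.84% of all kept genes, and none lower, with a median log2 ratio of 0.63. Without C66, 11 were higher. Pdcd1, the inhibitory receptor PD-1, was 10.7, 12.1, 7.48 and 14.0 CPM in the upper libraries and 6.86, 4.33, 3.96 and 5.67 CPM in the lower ones. Ctla4, a second inhibitory receptor, differed by a log2 ratio of 1.05 and Icos, a costimulatory receptor, by 0.80. Btla differed by 0.82. Foxp3, which defines regulatory T cells, had a log2 ratio of 0.78 with overlap, and Havcr2, the receptor TIM-3, had -0.08 at a level of 134 to 182 CPM in the upper libraries and 163 to 186 CPM in the lower ones. Havcr2 was also present in saline lavage, at 193 ± 6.12 CPM (SD, n = 8).

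Transcripts of helper T cell programmes were few. Of 23 regulators and cytokines only 13 passed the level of 1 CPM. Of these, 5 were higher, against 5.84% of all kept genes, and none lower, with a median log2 ratio of 0.75. Cd40lg, which lets T cells activate B cells and macrophages, had a log2 ratio of 1.16 on 14 to 56 counts. Il18r1, a subunit of the interleukin-18 receptor, had 0.96, and Tnfsf8, the ligand of CD30, had 0.95. Il4 stood against the list at -0.12.

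Receptors that guide lymphocytes were higher in 5 of 15 kept genes, against 5.84% of all kept genes, with none lower. The median log2 ratio was 0.73, and 11 were higher without C66 and 8 without C67. S1pr1, the receptor with which lymphocytes leave tissue towards blood and lymph, was 74.8, 68.2, 61.6 and 52.8 CPM in the upper libraries and 47.2, 27.8, 15.7 and 21.2 CPM in the lower ones. Ccr7, the lymph node homing receptor, was 139 to 197 CPM against 72.4 to 137 CPM, so that C50 and C66 were neighbours. Cxcr3, which recruits type 1 effector cells, was 11.1 to 12.7 CPM against 6.31 to 8.61 CPM. Cxcr6, a receptor of tissue-resident T cells, had a log2 ratio of 0.85, and its gene lies inside Fyco1 on the other strand, so that reads of the pair cannot be told apart without strand. With TMM factors 3 of the 15 were without overlap.

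NK and cytotoxic genes were higher in 7 of 16 kept genes, against 5.84% of all kept genes. None was lower, and the median log2 ratio was 0.83. Without C66, 11 were higher. Prf1, the pore-forming protein perforin, was 5.09, 6.55, 5.86 and 4.76 CPM in the upper libraries and 3.36, 1.98, 2.27 and 1.43 CPM in the lower ones. Nkg7, a granule membrane protein, was 15.2 to 18.4 CPM against 5.94 to 13.6 CPM. Klrc1, the NK receptor NKG2A, differed by 1.16 and Cst7, an inhibitor of granule proteases, by 1.102. Klrb1c, the NK receptor NK1.1, had a log2 ratio of 0.11 with overlap, and the NK receptor Ncr1 did not reach 1 CPM.

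Some B cell transcripts were higher in the same libraries, although B cells carry no CD3. Of 22 kept B cell and plasma cell genes 9 were higher (5.84% of all kept genes were), none was lower and 13 overlapped. The median log2 ratio was 1.14. Without C66 there were 20 higher genes and without C67 16. The summed list was 555.6 to 762 CPM in the upper libraries and 266 to 551.1 CPM in the lower ones, a narrow separation that TMM factors turned into overlap. Pou2af1 (ENSMUSG00000032053, chromosome 9, 51213708 to 51240080), a B cell transcriptional coactivator, was 34.6, 33.2, 23.2 and 26.3 CPM in the upper libraries and 19.7, 7.43, 5.33 and 9.33 CPM in the lower ones. Fcer2a, the low affinity IgE receptor CD23, had a log2 ratio of 1.46 and Cr2, the complement receptor CD21, had 1.39. The libraries highest in these genes were not always those highest in Cd3e: C49 led for Fcer2a and Cr2, and C65 for Pou2af1 and Cd3e.

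The B cell trace did not stand in a fixed ratio to the T cell trace. The deposited FPKM of Cd79a, a subunit of the B cell receptor, over that of Cd3e was 4.13, 3.05, 2.41 and 3.34 in the upper libraries and 3.47, 2.40, 1.86 and 4.14 in the lower ones, so that the highest and the lowest ratios both lay in the lower part. Sdc1, which marks plasma cells and epithelium, had a log2 ratio of -0.01 at 8.38 to 15.03 CPM against 10.3 to 13.4 CPM. Of 268 immunoglobulin genes 7 were kept and 3 were higher (5.84% of all kept genes were). The summed level of all 268 was 232 to 356 CPM in the upper libraries and 54.1 to 225 CPM in the lower ones. In saline lavage it was at most 2.45 CPM.

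**Figure D3:**
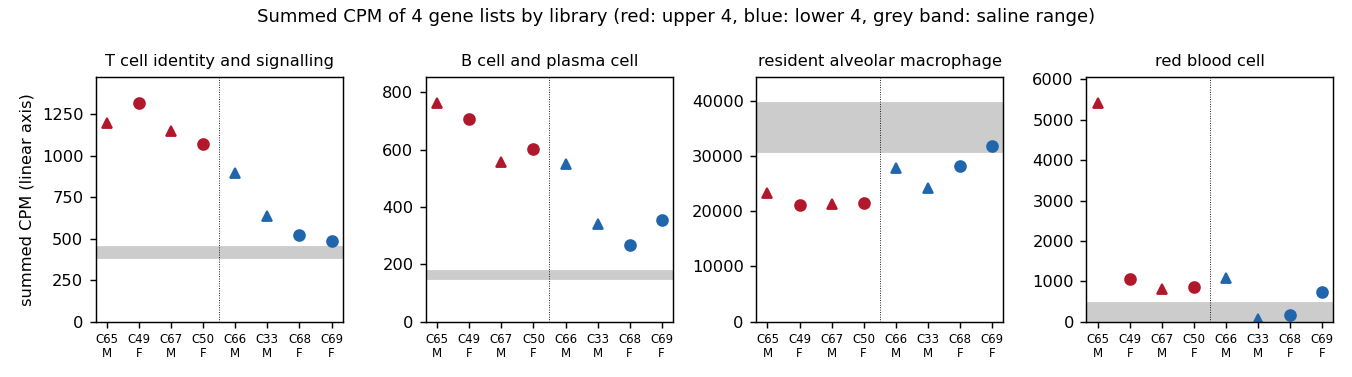
Summed CPM of 4 gene lists in the 8 bleomycin libraries (triangles, males; circles, females), ordered by falling Cd3e, with a grey band over the range of the 8 saline libraries. With these library totals the T cell and B cell sums were higher in every upper library (B cell narrowly, 555.6 CPM in C67 against 551.1 in C66) and the resident macrophage sum was lower, but with TMM factors the B cell and macrophage sums overlapped, and the red blood cell sum was set apart by C65 at 5408 CPM.

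The Gimap genes, which encode a family of GTPases of lymphocytes, moved evenly. They form a cluster on chromosome 6 from Gimap8 (start 48647234) to Gimap3 (end 48770851). All 8 genes passed the level, and 6 were higher, against 5.84% of all kept genes. The log2 ratios of the 8 lay between 1.02 and 1.26 with a median of 1.19. Gimap3 was 119, 127, 98.4 and 95.5 CPM in the upper libraries and 81.9, 40.2, 28.1 and 34.0 CPM in the lower ones. Gimap4 was 60.4, 70.1, 62.7 and 59.1 CPM against 47.7, 29.0, 16.5 and 19.3 CPM. Gimap5 and Gimap7 overlapped: C66, with 7.85 and 5.29 CPM, exceeded C65 (7.30 CPM) for Gimap5 and C67 (5.03 CPM) for Gimap7. The summed level of the family was at most 3.04 CPM in saline lavage.

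The promoters of the 6 higher Gimap genes are shown where they hold a motif of a T cell transcription factor whose own gene was higher. They are RefSeq sequences of GRCm38.p6, 250 bases before to 50 after the annotated start, and the 6 genes matched 7 such windows. Searched on both strands were AGGAAGT for ETS factors, which 9.35% of 32851 promoters of the same length hold, CTTTGA for TCF and LEF factors (16%), and TGTGGTT for RUNX factors (5.27%). The ETS motif was in 2 of the 7 windows, the TCF and LEF motif in 1 and the RUNX motif in 0. Gimap1 (chr6:48738797-48739096, plus strand) and Gimap9 (chr6:48675885-48676184, plus strand) hold the ETS motif on the reverse strand just past the annotated start, and Gimap4 (chr6:48684328-48684627, plus strand) holds the TCF and LEF motif on the reverse strand. Capitals mark the motif, and a match is a description of letters only.
Gimap1: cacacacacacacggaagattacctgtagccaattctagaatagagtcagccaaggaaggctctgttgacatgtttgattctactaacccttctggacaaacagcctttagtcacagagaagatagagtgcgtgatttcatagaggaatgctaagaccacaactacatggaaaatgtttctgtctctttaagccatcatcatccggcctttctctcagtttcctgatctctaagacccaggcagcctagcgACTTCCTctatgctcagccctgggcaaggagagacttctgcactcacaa
Gimap9: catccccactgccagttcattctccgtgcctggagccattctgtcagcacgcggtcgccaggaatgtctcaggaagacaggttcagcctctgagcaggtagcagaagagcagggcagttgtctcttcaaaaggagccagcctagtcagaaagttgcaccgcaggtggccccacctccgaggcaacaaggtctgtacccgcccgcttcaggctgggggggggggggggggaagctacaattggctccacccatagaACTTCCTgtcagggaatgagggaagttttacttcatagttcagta
Gimap4: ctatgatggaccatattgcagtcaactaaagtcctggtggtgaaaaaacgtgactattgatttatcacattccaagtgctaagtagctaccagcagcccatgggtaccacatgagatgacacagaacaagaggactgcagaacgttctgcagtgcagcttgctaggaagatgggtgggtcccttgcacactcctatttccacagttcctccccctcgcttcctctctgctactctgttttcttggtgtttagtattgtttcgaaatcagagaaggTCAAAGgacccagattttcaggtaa

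Transcription factors and signalling genes shared by several lymphocyte types were higher in part. Of 18 kept, 7 were higher (5.84% of all kept genes were), none was lower and 11 overlapped. The median log2 ratio was 0.73, and 13 were higher without C66. Ets1, the ETS factor of T, B and NK cells, was 170, 197, 134 and 172 CPM in the upper libraries and 102, 68.2, 45.4 and 49.5 CPM in the lower ones. Satb1, a chromatin organiser of T cells, had a log2 ratio of 1.36, and Ikzf3, the Ikaros family factor Aiolos, had 1.24. Evl, an actin regulator, had -0.05 and was at 399.5 ± 22.2 CPM (SD, n = 8) in saline lavage. Ptprc (CD45) and Ikzf1, which macrophages also make, had log2 ratios of 0.12 and 0.28, and whether macrophage RNA bears on these ratios was not tested.

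The 12 largest ratios among higher genes with at least 5 CPM included Pou2af1 and Fcer2a and several genes outside the lists. Cmah, which hydroxylates sialic acid, had the largest log2 ratio of these, 1.68. Its level was 32.5, 61.2, 26.4 and 30.8 CPM in the upper libraries and 18.8, 14.6, 6.42 and 6.94 CPM in the lower ones. St8sia6, a sialyltransferase, followed with 1.53, and C49 was the highest library for both. Trib2, a pseudokinase, had 1.48, Rflnb, a filamin-binding protein, 1.47, Pecam1, the adhesion molecule CD31 of endothelium and leukocytes, 1.47, and Il9r, the interleukin-9 receptor, 1.46. Carmil2, which links CD28 to the actin skeleton, had 1.44, and its gene overlaps Acd by 2328 bases on the other strand. Il9r and Carmil2 were also highest in C49, at 13.4 and 28.4 CPM. Vmn2r97, annotated as a vomeronasal receptor, and Dnah8, an axonemal dynein chain, had 1.49 and 1.45, and both were highest in C49, with 16.4 and 21.8 CPM against at most 7.73 and 11.5 CPM in the other upper libraries.

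**Figure D4:**
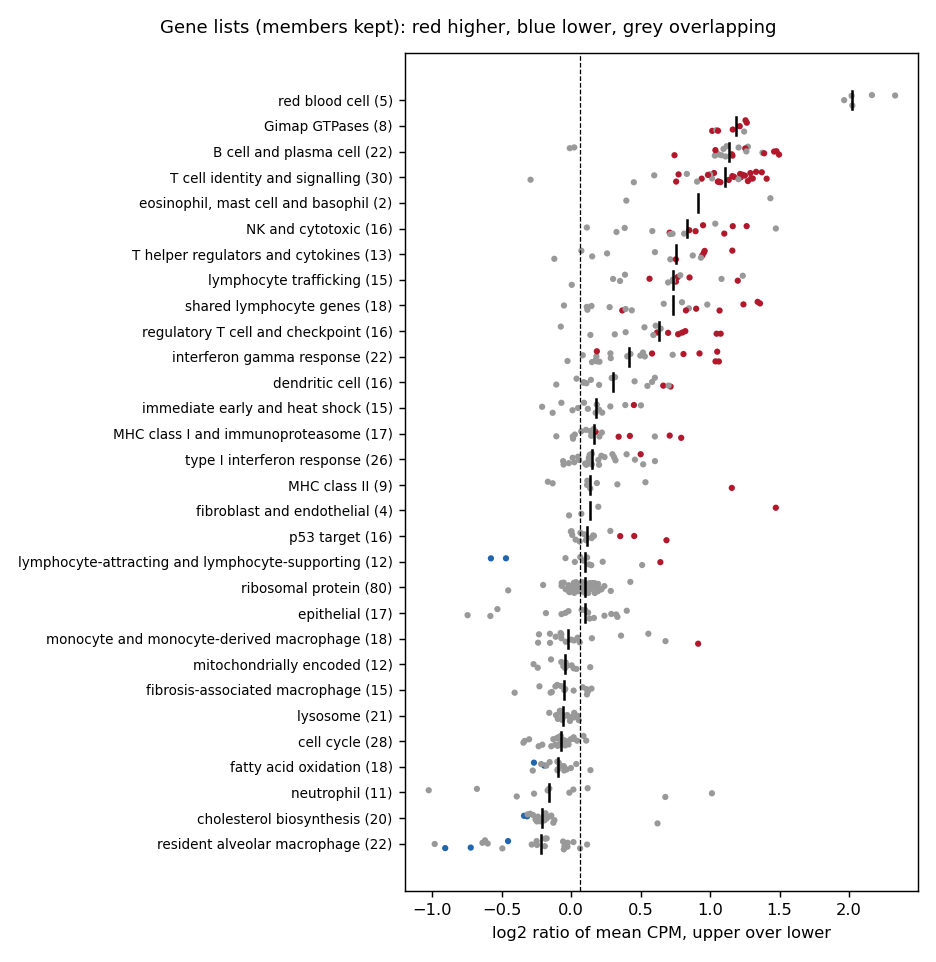
Log2 ratio of the upper over the lower libraries for each kept member of 30 gene lists (points; red higher, blue lower, grey overlapping), with the list median as a black bar and the median of all kept genes, 0.06, as a dashed line; the number of members kept is in brackets. Lymphocyte lists lie to the right, resident macrophage and cholesterol genes to the left, and the red blood cell genes overlap at a median of 2.02.

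Genes induced by interferon gamma, a cytokine of T cells and NK cells, were higher in 7 of 22 kept genes, with a median log2 ratio of 0.42 and none lower, against 5.84% of all kept genes. There were 5 with TMM factors and 11 without C49. Tgtp2, an immunity-related GTPase, was 6.87, 6.95, 9.84 and 7.04 CPM in the upper libraries and 5.34, 3.92, 2.27 and 2.97 CPM in the lower ones. Tgtp1, its near copy, had a log2 ratio of 1.04, and reads may be split between the pair. Gbp4 (1.05) and Gbp9 (0.92), guanylate-binding proteins, overlap each other and Gbp8 on the same strand, so that their separate values are uncertain. Irf1 (0.28) and Gbp2 (0.15) overlapped between the parts, as did the chemokine Cxcl9 (-0.03). Ifng itself had a log2 ratio of 1.25 below the level of 1 CPM.

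The type I interferon list had 1 higher gene (Oasl1, 0.50) of 26, a share below the 5.84% of all kept genes, and a median of 0.15. With TMM factors it had no higher gene. In the list of MHC class I and the immunoproteasome 5 of 17 were higher, with a median log2 ratio of 0.16, and 3 with TMM factors. H2-Q7, a nonclassical class I gene, was 68.8, 131, 93.6 and 85.8 CPM in the upper libraries and 63.1, 61.0, 50.3 and 44.6 CPM in the lower ones. H2-Q6 (0.71) and H2-Q4 (0.42) are near copies of it, so that the split of reads among the 3 is uncertain. Tap1, the peptide transporter, was 115 to 137 CPM against 90.5 to 112 CPM and overlaps Psmb9 on the other strand. Of 9 MHC class II genes only H2-Ob, a chain of the peptide-editing regulator H2-O found mostly in B cells, was higher (1.16), with a list median of 0.14.

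A few transcripts of resident alveolar macrophages were lower in the upper libraries. Of 22 kept, 3 were lower, none was higher and 19 overlapped (1.29% of all kept genes were lower), and the median log2 ratio was -0.22. With TMM factors 5 were lower, without C66 10 and without C65 5. Cidec (ENSMUSG00000030278, chromosome 6, 113424634 to 113435760), a lipid droplet protein, was 27.0, 40.3, 33.5 and 42.3 CPM in the upper libraries and 48.0, 69.9, 92.1 and 58.6 CPM in the lower ones. Every upper library was lower than every lower one, and all 8 lay far under the saline level of 412 ± 23.02 CPM (SD, n = 8).

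Ear1 and Ear2 encode ribonucleases that resident alveolar macrophages make in large amounts, and as close copies they may share reads. Ear1 was 36.3, 28.3, 35.8 and 39.1 CPM in the upper libraries and 68, 51.6, 56.1 and 54.6 CPM in the lower ones. Ear2 was 629, 524, 572 and 499 CPM against 795, 666, 701 and 887 CPM. Both separated the parts, and C66, the highest of the lower libraries for Lef1, Tcf7 and Pou2af1, was also the highest of the 8 for Ear1.

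The remaining members of that list overlapped. Chil3, a chitinase-like protein that made up 39.8% to 47.5% of the summed level of the list in the upper libraries and 42.3% to 56.2% in the lower ones, was 8469 to 11070 CPM against 10250 to 17880 CPM. The summed level was 21170 to 23290 CPM in the upper libraries and 24210 to 31820 CPM in the lower ones, without overlap. Without Chil3 it was 11770 to 12830 CPM against 12720 to 14140 CPM, which overlaps, and it overlapped with TMM factors as well. Krt79, a keratin of resident macrophages, had the most negative log2 ratio of the list, -0.98, with overlap (10.5 to 27.6 CPM against 22.1 to 57.9 CPM). The surface lectin Siglecf had -0.50, the transcription factor Pparg -0.25 and the scavenger receptor Marco -0.03, all with overlap, whereas the lipid-binding proteins Fabp4 (0.06) and Fabp5 (0.11) stood slightly above 0.

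**Figure D5:**
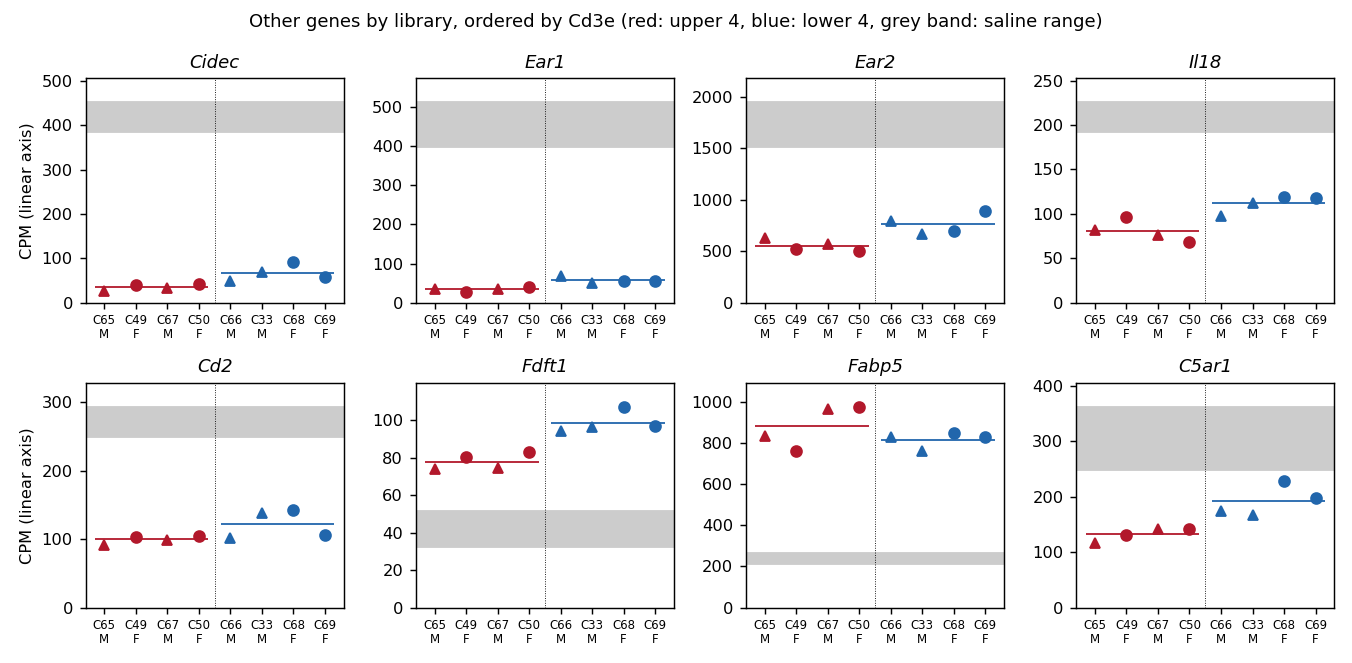
CPM of 8 genes in the 8 bleomycin libraries (triangles, males; circles, females), ordered by falling Cd3e, with lines at the mean of each part and a grey band over the range of the 8 saline libraries. Cidec, Ear1, Ear2, Il18, Fdft1 and C5ar1 were lower in all 4 upper libraries, Cd2 and Fabp5 overlapped, and the upper libraries lay farther from the saline band than the lower ones for Cidec, Ear1, Ear2, Il18 and C5ar1.

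The comparison of bleomycin with saline, which the labels give and the ranking did not use, set these genes in the whole series. Averaged over the sexes it called 9700 of 15257 genes (63.6%) at an adjusted p below 0.05 in edgeR, 5300 higher (34.7%) and 4400 lower after bleomycin. With library totals in place of TMM factors the split was 3720 higher and 7004 lower. Of the resident macrophage list 13 of 22 members fell and 6 rose. Cidec fell by 2.79 on the log2 scale (SE 0.192, edgeR adjusted p = 4.34e-10), Ear1 by 3.01 (SE 0.165, adjusted p = 1.87e-11) and Ear2 by 1.20 (SE 0.126, adjusted p = 1.5e-07). Lymphocyte genes absent under saline passed the count filter through the bleomycin groups, and their fold changes are therefore not used here.

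Cytokines that attract or support lymphocytes mostly overlapped between the parts. Of 12 kept genes, Il12b, a subunit of interleukins 12 and 23, was higher (0.64), and Tnfsf13b and Il18 were lower. The other 9 overlapped, the median log2 ratio was 0.10, and 9 of the 12 ratios were above 0. Of all kept genes 5.84% were higher and 1.29% lower. Il18, an inducer of interferon gamma, was 81.5, 96.3, 76.7 and 67.9 CPM in the upper libraries and 97.8, 112, 119 and 118 CPM in the lower ones. Tnfsf13b, the B cell survival factor BAFF, was 3.60 to 3.87 CPM against 4.80 to 7.68 CPM, on 72 to 186 counts, and C33 stood apart in the lower part. Against saline both fell after bleomycin, Il18 by 0.92 (SE 0.111, edgeR adjusted p = 9.44e-07) and Tnfsf13b by 1.69 (SE 0.152, adjusted p = 1.71e-08). The chemokines Cxcl10 (0.13), Cxcl16 (0.14) and Ccl4 (-0.04) overlapped.

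Cholesterol biosynthesis was lower in the upper libraries in 3 of 20 kept genes and higher in none, with a median log2 ratio of -0.21, against 1.29% of all kept genes lower and 3.22% of those above 100 CPM. In 19 of the 20 the ratio was below 0. With TMM factors 8 were lower, without C50 7, and without C66 or C69 6. Cyp51, a sterol demethylase, was 168, 177, 167 and 198 CPM in the upper libraries and 217, 210, 243 and 215 CPM in the lower ones. Hmgcs1, which makes the precursor of mevalonate, was 208 to 235 CPM against 249 to 281 CPM. Fdft1, squalene synthase, was 73.9 to 83.2 CPM against 94.5 to 107 CPM. Its gene overlaps the end of Ctsb by 774 bases on the other strand, and Ctsb, a lysosomal protease at 4537 to 5937 CPM in the upper and 4943 to 5796 CPM in the lower libraries, did not separate the parts.

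These 3 cholesterol genes rose after bleomycin, Fdft1 by a log2 fold change of 1.35 (SE 0.0928, edgeR adjusted p = 4.44e-10). Of 18 fatty acid oxidation genes, Cpt2 (-0.27), of the carnitine shuttle, and Acads (-0.19), a short-chain dehydrogenase, were lower. Of all kept genes 1.29% were lower.

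Monocyte-derived macrophage genes overlapped in 17 of 18 cases, with a median log2 ratio of -0.02. Most genes overlapped in any case, since 5.84% of all kept genes were higher and 1.29% lower. The exception was Plac8 (0.91), which monocytes share with lymphocytes, at 7.93 to 11.5 CPM in the upper and 3.30 to 7.04 CPM in the lower libraries. Ly6c2, a surface antigen of inflammatory monocytes and of some T cells, had 0.68 with overlap. The 15 genes of fibrosis-associated macrophages all overlapped, with a median of -0.05. Spp1 (osteopontin) had -0.10, Mmp12 (macrophage elastase) -0.05, Gpnmb 0.08 and Igf1 0.11, and Arg1 was the most negative at -0.41.

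Other cell types gave few genes without overlap, to be read beside the 5.84% of all kept genes that were higher. Among dendritic cell genes 2 of 16 were higher, Cacnb3 (0.72) and Zbtb46 (0.66), a transcription factor of classical dendritic cells. The 11 neutrophil, 17 epithelial and 28 cell cycle genes held none in either direction, and neither did the 21 lysosomal, 12 mitochondrially encoded and 80 ribosomal protein genes. Of 13 eosinophil, mast cell and basophil genes 2 passed the level, and both overlapped, although the sum of all 13 was higher in all 4 upper libraries (19.4 to 24.8 CPM against 12.8 to 18.6 CPM), with TMM factors too. Pecam1 was the only higher gene of 4 kept fibroblast and endothelial genes, and Btg2 (0.45), an antiproliferative gene, the only one of 15 immediate early and heat shock genes. Krt19, an epithelial keratin that was at 612 ± 40.2 CPM (SD, n = 8) in saline lavage, had a log2 ratio of -0.75 with overlap, from 68.9 to 103 CPM against 100.2 to 213 CPM. With TMM factors the summed epithelial and neutrophil lists were lower in all 4 upper libraries. The p53 targets Eda2r (0.69), Plk2 (0.45) and Trp53inp1 (0.35) were higher, 3 of 16, and with TMM factors 1 was.

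Of the 12 lower genes with the most negative ratios, several are receptors or secreted proteins of myeloid cells. C5ar1, the receptor of complement C5a, was 117, 132, 142 and 142 CPM in the upper libraries and 174, 167, 227 and 198 CPM in the lower ones. Fpr1, the formyl peptide receptor, was 84.8 to 118 CPM against 124 to 192 CPM. Lrg1, a secreted glycoprotein, was 81.2 to 112 CPM against 119 to 209 CPM, and Egfem1 (-0.75) and Rarres1 (-0.50) were, like Lrg1, set apart in the lower part by C69. Cxcl14, a chemokine, had -0.54, and Ocln, a tight junction protein, had -0.52. Tc2n, a C2 domain protein, had -0.49, and the pseudouridine synthase family member Rpusd3, near Cidec on chromosome 6, had -0.50.

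Sex was balanced between the parts, and the ranking was repeated within each sex as 2 against 2 libraries. In both sexes 981 genes (7.73%) were higher and 314 (2.47%) were lower without overlap. By construction these include all 741 higher and all 164 lower genes of the whole parts, so their recurrence adds no evidence. So few libraries also separate often by chance. With library totals, females alone gave 43.3% higher and 17.6% lower genes, and males 16.7% and 14.6%. The TMM factors of the upper females (1.027 in C49, 0.969 in C50) exceeded those of the lower ones (0.904 in C68, 0.864 in C69). In males they interleaved (0.899 in C65 and 0.929 in C67 against 0.904 in C66 and 0.946 in C33). The larger share in females may therefore depend on the scaling, which was not tested within each sex. Genes that were higher in males and lower in females numbered 319 (2.51%), and the reverse held for 796 (6.27%). For Pou2af1 the log2 ratio was 1.08 in males and 2.01 in females, for Gimap8 0.57 and 2.12, and for Lef1 1.27 and 1.62. Whether the ratios differ between the sexes was not tested.

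The label comparison of males with females under bleomycin, which the ranking did not use, called 9 of 15257 genes (0.059%) in edgeR, 5 higher in males (0.0328%) and 4 lower (0.0262%), and 605 had an unadjusted p under 0.05. DESeq2 also called 9. They were Xist, Kdm5c, Eif2s3x and Kdm6a, lower in males, and the Y-linked Ddx3y, Eif2s3y, Kdm5d and Uty with the predicted gene Gm29650, higher in males. None of the 905 genes without overlap was called, and 3 had an unadjusted p under 0.05. The parts hold males and females in equal number, so a gene that separates them varies within each sex. That spread works against a call by sex, so the lack of calls cannot show whether sex bears on these genes. No member of the T cell, B cell, NK or Gimap lists was called.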

How the data were processed

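The authors deposited a count table, whose values are unnormalized read counts per Ensembl gene, and an FPKM table. Each deposited FPKM is the count over the gene's length and over 1 number per library that the sources used here do not define, with a relative spread of at most 1.8e-14. Per the submitters' processing notes, the tools were fastp 0.12.2, DESeq2 (version not listed), featureCounts 1.5.0-p3 and HISAT2 2.0.5, and the builds mm9 and mm10 are named without a role. Of 54532 gene IDs, 54495 are in GENCODE M21 and 53585 (98.33%) have identical coordinates there, which are those of GRCm38. Whether counting used strand is not given in the sources used here. The 16 columns were matched to samples by the codes in their names.

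CPM is the count over the column total. The 4 libraries highest in Cd3e were set against the other 4 over genes with a mean of at least 1 CPM, with T cell receptor genes left out. Genes were named by rule: up to 4 without overlap per list and the 12 largest and 12 smallest ratios among protein-coding genes without overlap and with at least 5 CPM in the higher part, plus up to 4 members that stood against their list. Other list members named in the text were chosen after their values were seen. Label comparisons used the quasi-likelihood test of edgeR 4.0.16 under R 4.3.3 over all 16 libraries, with filterByExpr (minimum count 10), TMM and Benjamini-Hochberg adjustment. P-values measure the spread between these libraries, which may be technical in part. DESeq2 1.42.0, other scalings, filters and boundaries, and leaving out each library were tried as alternatives. The library split and the gene lists were chosen with earlier results of these data known. The edgeR fit and the description of the parts were checked on artificial counts with known changes. The deposited comparison tables were not used here. A few members of the lists are not reported here.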

Additional observations from a re-analysis of the deposited data

Results flagged for a closer look

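In 346 groups of 4 libraries, 21 held a library whose gap to its neighbour took up more than Dixon's critical share of the range (0.829). Chance gives about 1 in 20 for groups not chosen by their values. The parts are cuts of the Cd3e ranking, and many genes were named for separating them, so that rate does not apply here. In the upper part C65 stood apart for summed haemoglobin (5346 CPM), the red blood cell list (5408 CPM), the MHC class II list (6413 CPM) and the list of lymphocyte-attracting and lymphocyte-supporting genes (420.3 CPM). C49 stood apart for the summed lymphocyte trafficking list (1403 CPM), the shared lymphocyte list (2770 CPM) and Cacnb3 (90.5 CPM). C67 was high for Tgtp2 (9.84 CPM), and C50 was low for Trat1 (6.64 CPM).

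In the lower part C66 stood above the other 3 for Cd3e (25.8 CPM), the summed T cell receptor complex (95.3 CPM), Lef1 (25.9 CPM), Cxcr3 (8.61 CPM), Ly6c2 (29.1 CPM), Ccl4 (5.88 CPM) and Rflnb (14.7 CPM). That C66 led the lower part for Cd3e follows from the ranking, and the receptor complex moved with Cd3e. C33 was high for Tnfsf13b (7.68 CPM) and Mcm4 (60.5 CPM). C69 was high for Egfem1 (14.8 CPM), Lrg1 (208.7 CPM) and Rarres1 (15.6 CPM).

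In 4 cases every upper library lay on one side of every lower one in males and on the other side in females, and the difference was not tested. The log2 ratio of the summed list of MHC class I and the immunoproteasome was 0.245 in males and -0.112 in females. For Csf3r it was -0.243 and 0.489, for Havcr2 -0.259 and 0.0945, and for Oas1a 0.0901 and -0.193.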

How the results depend on the processing

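Ranking by Cd3d kept 3 of the 4 upper libraries and ranking by Cd2 kept 1, whereas Cd3g, Lck and TMM-scaled Cd3e kept all 4. With TMM factors 377 genes were lower, and among list members 3 trafficking and 3 MHC class I genes were higher, and 5 resident macrophage and 8 cholesterol genes were lower. A minimum of 10 CPM left 439 higher genes. The 3 highest against the 3 lowest libraries gave 1418 higher and 588 lower genes, with higher members numbering 12 (regulatory T cell), 8 (T helper), 11 (trafficking), 11 (NK), 20 (B cell) and 13 (shared lymphocyte) and lower members 10 (resident macrophage) and 9 (cholesterol). Fewer libraries separate more often by construction. With C66 moved to the upper part (5 against 3, chosen after seeing the data), 972 genes were higher and 311 lower, of which 465 and 69 were among those of the 4 against 4, and the lists gave 10 trafficking, 20 B cell, 13 shared lymphocyte and 3 MHC class I genes higher and 8 resident macrophage and 5 cholesterol genes lower. Leaving out 1 library gave 843 to 1307 higher and 203 to 415 lower genes. C65 (1307 and 415), C66 (1248 and 406) and C33 (1286 and 378) moved both counts most. Among the lists the range was 7 to 11 for regulatory T cell, NK and interferon gamma genes, 7 to 13 for shared lymphocyte, 5 to 11 for trafficking and 9 to 20 for B cell genes higher, and 3 to 10 for resident macrophage and 3 to 7 for cholesterol genes lower.

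Within each sex 314 genes, 8 resident macrophage and 8 cholesterol genes were lower in both sexes, and 8 trafficking and 12 shared lymphocyte genes were higher. The genes without overlap in the whole parts are among these by construction. The male against female count was 14 with no filter on low counts, 6 in the 8 bleomycin libraries alone, and 5 in those 8 with Cd3e as a covariate, a fit that also differs from the 9 in leaving out saline. Among the genes named by rule, no ratio without overlap changed sign under the alternatives run, and signs over all genes were not compared. By construction such a sign holds when libraries are left out or when the filter or the added CPM is changed. Only TMM factors, totals without red blood cell genes and moving C66 to the upper part could have changed it. No paired analysis was possible because the groups share no replicate numbers in the labels. At this depth genes near 1 CPM rest on few counts, such as 14 to 56 for Cd40lg.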

Other observations

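Xist, the noncoding transcript of the silenced X, was higher in the 2 upper females than in the 2 lower ones, at 849 CPM in C49 and 446 CPM in C50 against 301 CPM in C68 and 191 CPM in C69, on 3610 to 16984 counts. The order of the 4 libraries is that of their Cd3e level, and C49 also held the most genes with at least 10 counts (15351). The relation was not tested.

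Cd2 and Evl, both listed as lymphocyte genes, were higher in saline lavage (276 and 399.5 CPM on average) than in every bleomycin library (at most 143 and 188 CPM), while Lef1 and Gimap6 were at 0.0297 and 0.128 CPM in saline lavage.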
